A study of Mus musculus with 4 samples.

Results

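The genes described here are 43 interferon-stimulated antiviral effector genes, that is, genes whose products act against viruses and whose transcription is raised by interferon. They were chosen by name: every probe whose gene name in the scanner files, or an older synonym of it, was on the list belonged to the set. The rule uses no measured value, though the list was drawn up with earlier results of these data known. All 43 genes were found on the array, with 64 probes, among 22208 genes named there. Of these, 42 had a probe that was well above background on at least 1 array and were measured, among 16649 genes measured in all. The remaining gene was Oas1g, whose probes were not well above background on any array. The study asked whether adult mouse cardiac mesenchymal progenitors (CMPs), Sca-1+ stromal cells grown from the atria of C57BL/6 hearts, become adipocytes after transduction of the reprogramming factors Oct4, Sox2, Klf4 and c-Myc (OSKM). RNA was hybridised to 1-colour Agilent arrays from untreated CMPs, labelled day 0 (CMP control), and from CMPs carrying OSKM (OSKM-CMPs) at day 4, day 6 and day 8, with 1 array per condition. The factors were delivered by Sendai virus, an RNA virus vector, on the day before day 0, and the transduced cells were moved to a reprogramming medium without leukemia inhibitory factor on day 0. The control carried neither virus nor factors and had a single time point, and no array of cells with virus alone was analysed here, so virus, factors, medium and time in culture cannot be told apart.

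Cells that detect viral RNA in the cytoplasm through sensors such as RIG-I (Ddx58) and MDA5 (Ifih1) make type I interferon. Interferon binds its receptor (Ifnar1 and Ifnar2), the kinases Jak1 and Tyk2 are activated, and Stat2 and Irf9 enter the complex ISGF3, which binds the interferon-stimulated response element (ISRE) in the promoters of its target genes. The products of those targets cut or bind foreign RNA, tag proteins, alter nucleotide pools and block the entry or release of virus. Fibroblasts and other mesenchymal cells respond to interferon in this way as well as immune cells.

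Promoter sequences show what part of the set shares in its DNA. RefSeq promoters of build GRCm38.p6, from 250 bases before to 50 after a gene's start, were available for 33 of the 43 genes; Mx1, Mx2, Oas1b, Oas2, Usp18, Zbp1, Parp9, Parp14, Rtp4 and Tor3a were not matched. The motif searched was the core of the ISRE, a pair of GAAA half-sites 2 bases apart (GAAANNGAAA), on either strand. It was found in 13 of the 33 genes (39.4%), and in 1079 of the 27025 genes of the whole table (3.99%), or 3.44% of its 32851 promoters. The gamma-activated site (GAS), the element of the interferon gamma response, searched as TTCNNNGAA, was found in 8 of the 33 genes (24.2%) and in 9.55% of all genes of the table. The 250 bases before the start are shown for 6 members, with every ISRE core in capitals and overlapping cores run together. Isg15, at chr4:156200819-156201068 (minus strand), Ifit1, at chr19:34640639-34640888 (plus strand), Ifit3, at chr19:34583279-34583528 (plus strand), and Rsad2, at chr12:26456453-26456702 (minus strand), are shown as members that hold the core and rose. Lgals9, at chr11:78984925-78985174 (minus strand), holds a core and stayed within 2-fold of the control. Oasl1, at chr5:114922990-114923239 (plus strand), has no exact match in this window and rose strongly.
Isg15: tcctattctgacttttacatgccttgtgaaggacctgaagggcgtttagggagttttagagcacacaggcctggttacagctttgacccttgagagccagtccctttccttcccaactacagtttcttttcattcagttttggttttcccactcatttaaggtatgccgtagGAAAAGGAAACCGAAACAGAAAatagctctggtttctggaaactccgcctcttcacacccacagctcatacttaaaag
Ifit1: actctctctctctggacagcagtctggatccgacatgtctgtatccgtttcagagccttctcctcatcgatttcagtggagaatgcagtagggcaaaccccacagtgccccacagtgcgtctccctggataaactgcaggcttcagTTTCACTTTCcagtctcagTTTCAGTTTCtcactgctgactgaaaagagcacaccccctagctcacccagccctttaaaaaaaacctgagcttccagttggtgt
Ifit3: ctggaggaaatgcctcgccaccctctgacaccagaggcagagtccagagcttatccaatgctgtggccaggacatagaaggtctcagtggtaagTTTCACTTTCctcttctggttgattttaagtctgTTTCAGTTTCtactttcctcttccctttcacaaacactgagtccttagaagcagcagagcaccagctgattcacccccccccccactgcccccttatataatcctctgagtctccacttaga
Rsad2: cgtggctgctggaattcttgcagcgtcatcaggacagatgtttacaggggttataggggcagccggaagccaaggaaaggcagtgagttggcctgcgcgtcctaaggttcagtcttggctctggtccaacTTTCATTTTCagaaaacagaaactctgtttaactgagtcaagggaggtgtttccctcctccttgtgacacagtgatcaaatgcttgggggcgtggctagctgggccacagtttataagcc
Lgals9: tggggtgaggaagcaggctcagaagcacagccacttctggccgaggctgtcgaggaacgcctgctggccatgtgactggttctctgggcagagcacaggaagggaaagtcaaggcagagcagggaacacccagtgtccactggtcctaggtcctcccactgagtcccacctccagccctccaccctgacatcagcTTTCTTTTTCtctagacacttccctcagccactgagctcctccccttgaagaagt
Oasl1: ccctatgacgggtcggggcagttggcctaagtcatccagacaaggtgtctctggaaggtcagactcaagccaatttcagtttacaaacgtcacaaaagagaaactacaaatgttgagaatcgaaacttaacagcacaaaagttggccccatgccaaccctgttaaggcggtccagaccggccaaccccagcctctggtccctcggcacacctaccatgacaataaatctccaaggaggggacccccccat
In Isg15 the 3 cores overlapped and began 78, 72 and 66 bases before the start. Ifit1 had cores beginning 104 and 85 bases before it, and Ifit3 had them at 156 and 122 bases. The single core of Rsad2 began 120 bases before the start. Lgals9 had 1 core at 55 bases before the start and another within the first 50 bases after it. These are matches of letters in a window and not measured binding sites.

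**Figure D1:**
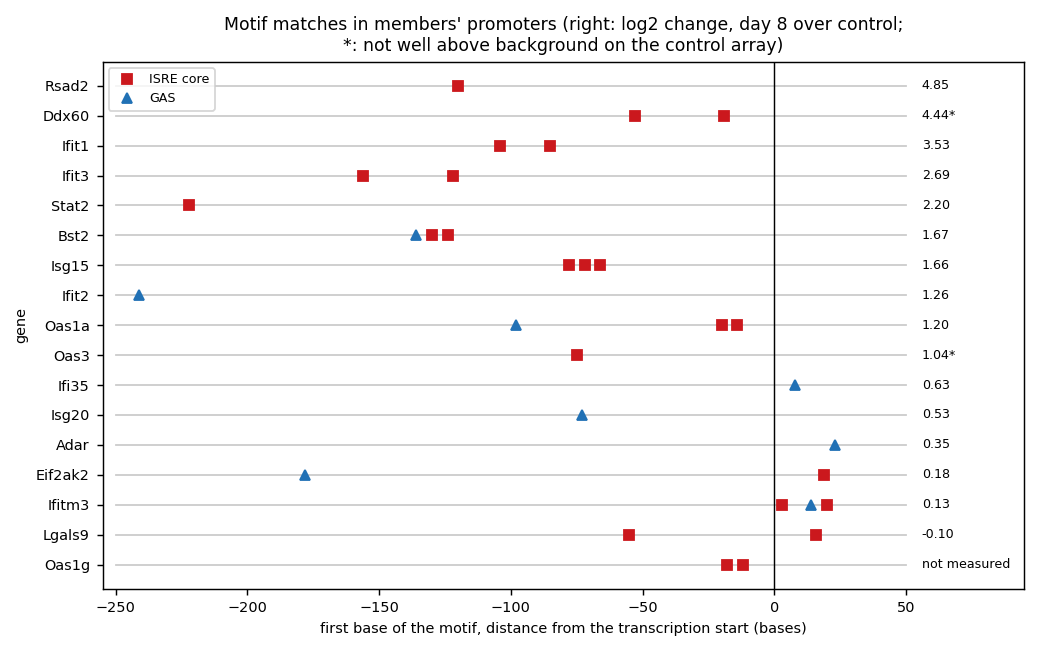
Positions of ISRE cores (red squares) and GAS matches (blue triangles) in the promoters of the members that hold either, with distance from the transcription start in bases on the horizontal axis and 1 gene per row, ordered by the log2 change from control to day 8 printed on the right (an asterisk marks a gene too dim in the control to be well above background). The cores of Rsad2, Ifit1, Ifit3 and Isg15 all lie before the start, and those of Eif2ak2 and Ifitm3, which stayed within 2-fold, lie after it.

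Of the 33 matched genes, 32 were measured. Among the 12 measured genes with an ISRE core, 9 were at least 2-fold higher at day 8 (75%), with a median log2 change of 1.66. Among the 20 without one, 12 were higher (60%), with a median of 1.27. At day 4 the counts were 9 of 12 (75%) and 7 of 20 (35%), and at day 6 they were 8 of 12 (66.7%) and 13 of 20 (65%), so the shares of the 2 groups were apart at day 4 and close at day 6. Over all measured genes with a promoter in the table, members included, 20.3% of 474 genes with the core were at least 2-fold higher at day 8. Among the 12521 genes without it the share was 13.4%. With the members left out, the shares were 18.8% of 462 genes and 13.3% of 12501. The 3 members with a core that stayed within 2-fold were Eif2ak2, Ifitm3 and Lgals9. In Eif2ak2 and Ifitm3 no core lay before the start.

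Values are processed Cy3 signals, scaled so that the 75th percentile of each array is 100, and are called levels here. Since probes differ in brightness, a level is compared between arrays and not between genes. Changes are differences of log2 levels. Before scaling, that percentile lay between 388.5 and 411.0, and 56.6% to 59.6% of the probes on an array were well above background. No spot was saturated. Errors after ± are 1 SD from the error model of the scanner software and cover neither cultures nor RNA preparation. They had a median of 0.20 over the members' changes at day 8. There was 1 array per condition, so no test between conditions was possible, no p-value is given, and the number of arrays limits the precision. A gene counted as higher or lower when it differed by at least 2-fold and was well above background on the brighter array. Of the genes transduced, the mouse probes for Klf4 read a log2 level of 4.43 on the control array and 3.51 to 3.65 on the others, and those for Myc fell from 1.17 to between -1.91 and -1.48. Whether these probes bind the copies carried by the virus was not tested. Pou5f1 and Sox2 were not well above background on any array.

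Most antiviral effector genes were higher in OSKM-CMPs than in the CMP control, and most of the rise was present at day 4. At day 4, 24 of 42 members were at least 2-fold higher, against 11.5% of all genes measured, and 1 was at least 2-fold lower, against 9.42%. At day 6, 29 of 42 were higher, against 12.3% of all genes, and 1 was lower, against 11.3%. At day 8, 29 of 42 were again higher, against 14.1%, and 1 was lower, against 11.5%. The lower gene was Ifitm1 on each day. All 3 comparisons share the control array. The median log2 change of the members was 1.28 at day 4, 1.48 at day 6 and 1.49 at day 8, where the median over all genes was -0.01, -0.03 and -0.03. Ddx60 and Oas3 were dim in the control, and with dim values set to the lowest signal well above background on their array the median was 1.28, 1.43 and 1.49. At day 8 the middle 50% of the members lay between 0.66 and 2.03.

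A total of 23 members (54.8%) were at least 2-fold higher on all 3 days, as were 8.44% of all genes. In 37 of 42 members (88.1%) every OSKM-CMP array read above the control, as it did in 37.5% of all genes. Of the 29 genes that were higher at day 8, 11 were at least 4-fold higher and 7 at least 8-fold. At least 16-fold higher were 3, and at least 32-fold higher were 2. Genes dim on the control array were counted at their bound. The shares of all genes at these limits were not counted. Among all 16649 genes ordered by day 8 change, the last-placed member of each count was, in turn, Rnf213 (rank 1039), Ifi44 (447), Rsad2 (154) and Oasl1 (134). That order takes dim genes at their measured values. Just inside the 2-fold limit at day 8 were Oas3 (log2 change 1.04), Znfx1 (1.13) and Oas1a (1.20), and just outside it were Uba7 (0.96), Parp12 (0.73) and Ifi35 (0.63).

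**Figure D2:**
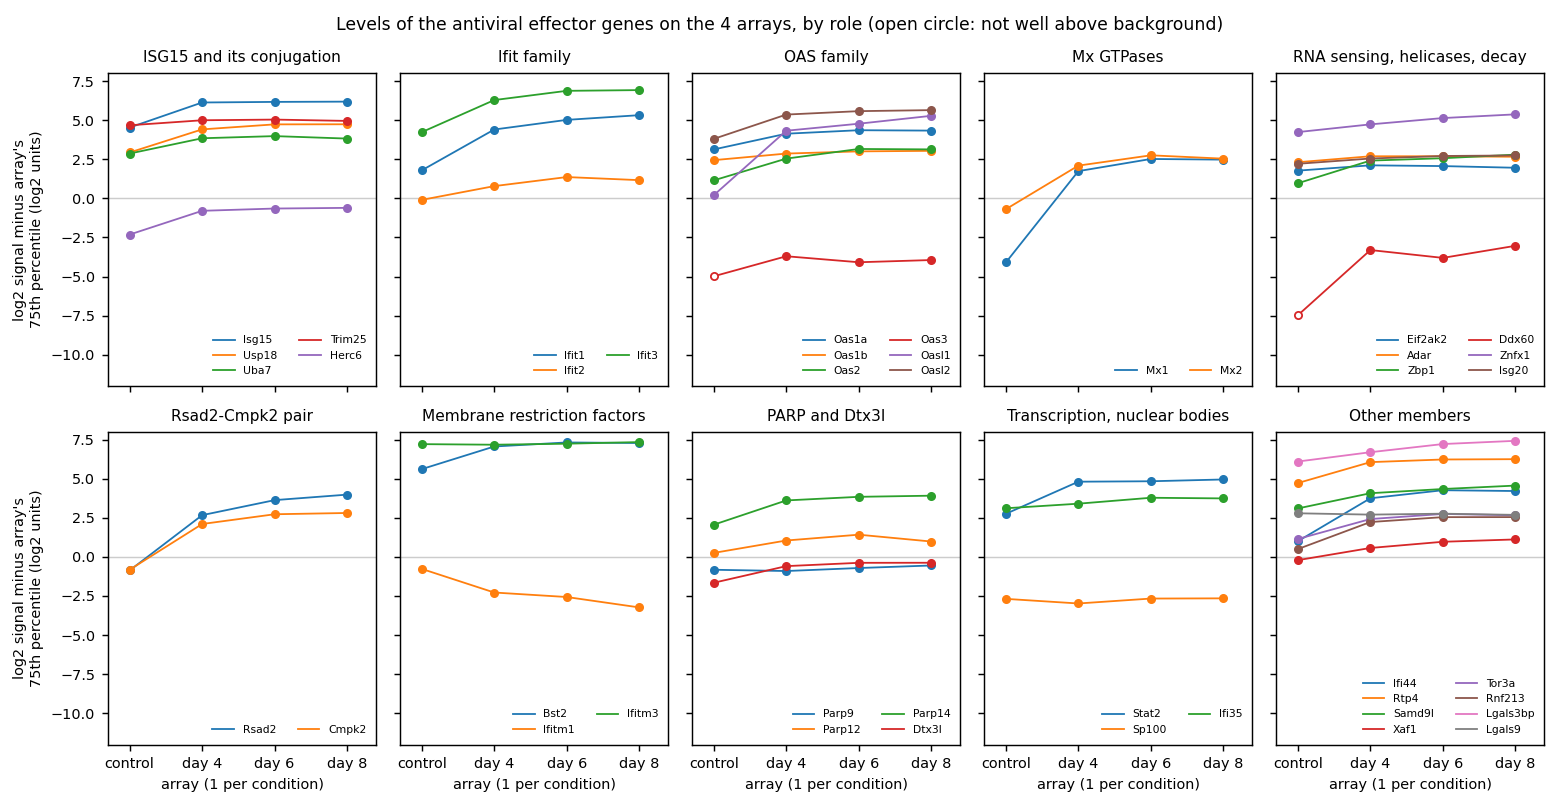
Levels of the 42 measured members on the 4 arrays, in 10 panels by role; the vertical axis is the log2 signal minus the 75th percentile of the array in log2 units, each line is 1 gene, and open circles are values not well above background. Most lines step up between the control and day 4 and are flatter afterwards, while Ifitm1 falls and Ifitm3, Lgals9 and Sp100 run level.

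The largest change on the scale used here was that of Mx1, one of the Mx GTPases, dynamin-like proteins that trap viral ribonucleoproteins. Mx1 read 5.82 in the CMP control, and 334, 572 and 556 in OSKM-CMPs at days 4, 6 and 8. Its log2 change at day 8 was 6.58 ± 0.25, or 95.5-fold. With normexp background correction and quantile normalization it was 4.89, below the 5.06 of Oasl1. C57BL/6 mice are known to carry an Mx1 allele that gives no working protein. Mx2 read 61.7, 426, 673 and 581 in the same order, a change of 3.23 ± 0.20. Both genes were highest at day 6. The rise of Mx1 was larger than that of Mx2 by 3.34 ± 0.32 at day 8, more than the measurement error. Under that alternative Mx2 changed by 2.92, so the gap was smaller.

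The OAS family makes 2′-5′-linked oligoadenylates on double-stranded RNA, which activate the nuclease RNase L; the OAS-like members differ in that activity. In this family 5 of 6 measured genes (83.3%) were higher at day 8, against 14.1% of all genes. Oasl1, an OAS-like protein without that enzyme activity, read 115 in the CMP control, and 2002, 2733 and 3877 in OSKM-CMPs at days 4, 6 and 8. It changed by 5.08 ± 0.20 and read higher on each later array. Its neighbour Oasl2 read 1395, 4098, 4769 and 4992, a change of 1.84 ± 0.20, which was smaller by 3.24 ± 0.29. Oas2 read 222, 582, 892 and 876 (1.98 ± 0.20). Oas1a read 873, 1754, 2048 and 2013 (1.20 ± 0.14). Both levelled off after day 6. Oas3 was too dim in the control to be well above background and read 7.68, 5.89 and 6.49 afterwards, which was at least 2.43-fold higher at day 4 and at least 2.05-fold at day 8. At day 6 its bound was 1.86-fold. Its log2 change at day 8 was below 2-fold with normexp and quantile normalization (0.23) and with quantile normalization alone (0.78). Oas1b, known to be truncated in many laboratory strains, read 543, 727, 802 and 821 and stayed within 2-fold (0.60 ± 0.12).

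Rsad2 and Cmpk2 are adjacent genes that act together: Cmpk2 is a nucleotide kinase, and the Rsad2 product viperin turns CTP into a chain terminator of viral polymerases. Rsad2 read 54.8 in the CMP control, and 635, 1237 and 1578 in OSKM-CMPs at days 4, 6 and 8. Cmpk2 read 56.6, 429, 661 and 700. Both read higher on each later array, and had risen by 4.85 ± 0.20 and 3.63 ± 0.14 at day 8. Rsad2 was also the single member that rose at least 2-fold between day 4 and day 8, by 1.31 ± 0.20.

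All 3 Ifit genes, whose products bind viral RNA through its 5′ end or block its translation, were higher at day 8. Ifit1 read 345 in the CMP control, and 2112, 3238 and 3989 in OSKM-CMPs at days 4, 6 and 8 (3.53 ± 0.20). Ifit3, which stabilises Ifit1 complexes, read 1877, 7792, 11735 and 12122 (2.69 ± 0.20). Ifit2 read 93.3, 172, 257 and 224 and passed 2-fold at day 6 and day 8 but not at day 4 (0.88 ± 0.20 at day 4, 1.26 ± 0.20 at day 8). The change of Ifit2 at day 8 was smaller than that of Ifit1 by 2.27 ± 0.29.

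Isg15 is a ubiquitin-like protein that is joined to other proteins by an E1 enzyme (Uba7) and E3 ligases (Herc6 in the mouse, Trim25) and is removed by the protease Usp18, which also restrains signalling at the interferon receptor. Isg15 itself read 2309 in the CMP control, and 7000, 7186 and 7271 in OSKM-CMPs at days 4, 6 and 8, so that nearly all of its change (1.66 ± 0.14) was present at day 4. Usp18 read 763, 2126, 2654 and 2666 (1.80 ± 0.20). Herc6 read 20.1, 57.6, 63.7 and 65.6 (1.71 ± 0.15). The modifier, the protease and the E3 ligase Herc6 thus rose by between 1.66 and 1.80. Uba7 read 728, 1434, 1577 and 1414 and passed 2-fold at day 6 alone (1.11 ± 0.20, against 0.96 ± 0.20 at day 8). With quantile normalization its day 8 change passed 2-fold, at 1.09 after normexp and 1.10 without it. Trim25 read 2549, 3184, 3282 and 3093 and stayed within 2-fold.

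The genes for sensing and decay of RNA were divided. Ddx60, a helicase linked to RIG-I signalling, was too dim in the control to be well above background and read 10.1 at day 4, 7.14 at day 6 and 12.2 at day 8, at least 3.76-fold, 2.66-fold and 4.54-fold higher. With normexp and quantile normalization its log2 change at day 8 was 0.82, below 2-fold. Zbp1, a sensor of Z-form nucleic acid that can start cell death, read 195 on the control array, then 533, 592 and 694 (1.83 ± 0.14). Znfx1, an RNA helicase, read higher on each later array, from 1885 through 2655 and 3510 to 4138, and passed 2-fold at day 8 alone (1.13 ± 0.20). These 3 genes were higher at day 8 and the other 3 stayed within 2-fold on every day. Eif2ak2 encodes PKR, which halts translation on double-stranded RNA, and read 341, 432, 418 and 388. Adar, which edits adenosine in double-stranded RNA, read 495, 646, 645 and 632. The exonuclease Isg20 read 463, 584, 654 and 669. Their log2 changes at day 8 were 0.18 ± 0.20, 0.35 ± 0.14 and 0.53 ± 0.14.

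Among the membrane-anchored factors 1 rose, 1 fell and 1 did neither. Bst2 (tetherin), which holds budding virus on the cell surface, read 4884 in the CMP control, and 13324, 15943 and 15547 in OSKM-CMPs at days 4, 6 and 8 (1.67 ± 0.20). Ifitm3 blocks the fusion of virus with endosomes, and it read 14794, 14414, 15081 and 16206, a change of 0.13 ± 0.06. Ifitm1, of the same family, fell at each time point from 58.7 through 20.6 and 16.9 to 10.6, by 1.51 ± 0.15, 1.80 ± 0.15 and 2.46 ± 0.15 on the log2 scale. With normexp and quantile normalization it fell by 1.64 at day 8. Its 2 probes fell by 2.58 and 2.34 at day 8, and the array files place the second of them on chromosome 8, away from the gene. The difference between Ifitm3 and Ifitm1 was 2.59 ± 0.17 at day 8.

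The PARP genes and Dtx3l encode enzymes of ADP-ribosylation and a ubiquitin ligase that pairs with Parp9. Parp14 read 416 in the CMP control, and 1220, 1432 and 1506 in OSKM-CMPs at days 4, 6 and 8 (1.86 ± 0.20). Dtx3l read 31.8, 66.4, 76.8 and 77.0 (1.28 ± 0.13), and its day 8 change was below 2-fold (0.81) with normexp and quantile normalization. Parp12 read 119, 207, 267 and 197 and passed 2-fold at day 6 alone. Parp9 read 56.5, 53.4, 61.0 and 68.2 (0.27 ± 0.20), as the mean of 2 probes that moved in opposite directions.

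Stat2, a subunit of ISGF3, read 674 in the CMP control, and 2800, 2854 and 3090 in OSKM-CMPs at days 4, 6 and 8, a change of 2.20 ± 0.20 that was largely present at day 4. Sp100, a component of nuclear bodies, read 15.6, 12.7, 15.8 and 15.9 and did not differ from the control by more than the measurement error at day 8 (0.03 ± 0.19). Ifi35 read 862, 1056, 1374 and 1335 (0.63 ± 0.20). Stat2 was thus the single member of this role past 2-fold.

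Of the other 8 members, 7 (87.5%) were higher at day 8, against 14.1% of all genes. Ifi44 read 201 in the CMP control, and 1344, 1919 and 1851 in OSKM-CMPs at days 4, 6 and 8 (3.21 ± 0.20). Rnf213, a large ubiquitin ligase, read 141, 469, 582 and 583 (2.04 ± 0.15). These were the largest changes of the 8. Rtp4 read 2638, 6665, 7492 and 7598 (1.53 ± 0.20). Tor3a, an ATPase of the torsin family, read 221, 535, 671 and 631 (1.51 ± 0.14). Both had passed 2-fold at day 4. The slower genes were Samd9l, a restriction factor, with 856, 1680, 2024 and 2357, Xaf1, a binder of the apoptosis inhibitor Xiap, with 86.5, 148, 195 and 217, and Lgals3bp, a secreted glycoprotein, with 6844, 10342, 14851 and 17132. Each of these 3 was within 2-fold at day 4, with changes of 0.97 ± 0.14, 0.78 ± 0.15 and 0.60 ± 0.14. Samd9l missed the limit by less than its error. All 3 read higher on each later array, with day 8 changes of 1.46 ± 0.14, 1.32 ± 0.15 and 1.32 ± 0.14. Xaf1 was below 2-fold (0.96) with normexp and quantile normalization. Lgals9, a galectin, read 690, 651, 678 and 643 (-0.10 ± 0.20).

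**Figure D3:**
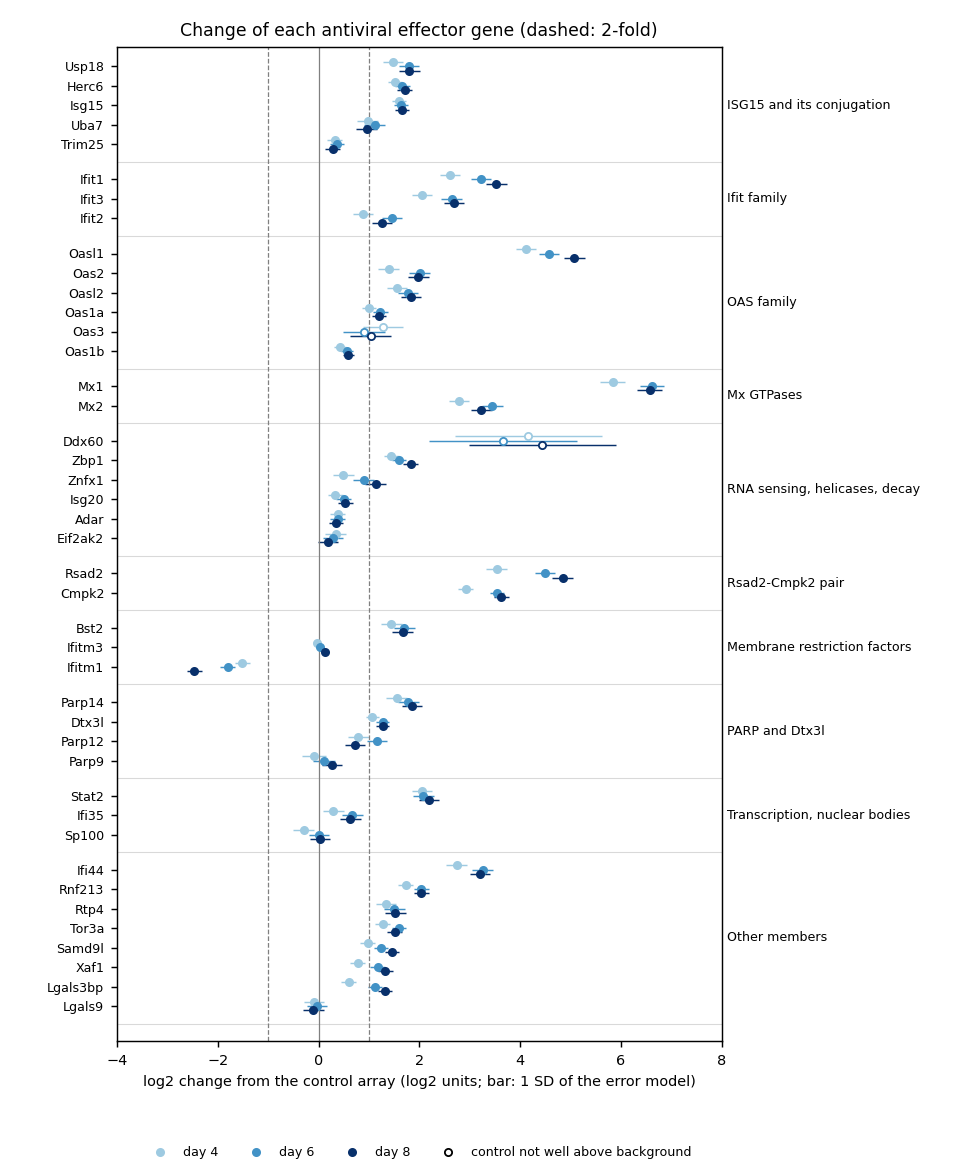
Log2 change of each of the 42 measured members from the control array at day 4, day 6 and day 8 (light to dark blue), grouped by role; bars are 1 SD of the scanner software's error model, dashed lines mark 2-fold, and open circles mark the genes too dim in the control to be well above background. Mx1 lies farthest to the right at 6.58 at day 8 and Ifitm1 farthest to the left at -2.46.

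After day 4 most members stayed within 2-fold, but their median change was above that of all genes in each interval. The median member change was 0.24 from day 4 to day 6, 0.02 from day 6 to day 8 and 0.29 from day 4 to day 8. Over all genes the medians for these intervals were -0.03, -0.01 and -0.03. From day 4 to day 8 the members' median also lay above the upper quartile of all genes, 0.25. No member passed 2-fold in either of the shorter intervals. Few genes of any kind did: 2.46% of all genes were higher and 2.28% lower from day 4 to day 6. From day 6 to day 8 the shares were 2.20% and 0.709%. Between day 4 and day 8, 97.6% of the members and 91.0% of all genes stayed within 2-fold. Between day 4 and day 8, 1 member was at least 2-fold higher, against 4.66% of all genes, and 0 were lower, against 3.8%. Still, 34 of 42 members read higher at day 8 than at day 4, as did 7866 of all 16649 genes. In 21 of 42 members the 4 arrays were in strict rising order, as they were in 12.4% of all genes. The highest array was day 8 for 25 members (59.5%, against 24.8% of all genes), day 6 for 12, day 4 for 3 and the control for 2. All 24 genes that were higher at day 4 were also higher at day 8, and 5 genes joined them later: Ifit2, Znfx1, Samd9l, Xaf1 and Lgals3bp. At day 4 Ifit2, Samd9l and Uba7 missed the limit, and Oas1a, Dtx3l and Oas3 passed it, by less than their errors. For the 29 genes higher at day 8, the log2 change at day 4 was a median of 83.6% of that at day 8, from 43.6% for Znfx1 to 123% for Oas3, which was dim in the control. For all genes at least 2-fold higher at day 8 the median was 78.2%.

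Several members lie side by side in the genome, and neighbours did not always change alike. The positions given are those of the probes in the array files, on build mm9. Rsad2 and Cmpk2, with probes at chr12:27127859-27164178, both rose more than 8-fold. Ifit1, Ifit2 and Ifit3 (chr19:34650244-34723855) all rose, by unequal amounts. Mx1 and Mx2 (chr16:97668644-97782386) and Oasl1 and Oasl2 (chr5:115362168-115387920) rose by amounts that differed by 3.34 and 3.24 log2 units at day 8, with the smaller gap of the Mx pair under normexp and quantile normalization given above. Parp14 and Dtx3l rose, and Parp9, in the same 140-kb stretch (chr16:35832992-35972636), read within 2-fold. At chr7:148155659-148195650, Ifitm1 fell and Ifitm3 held its level.

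For 18 members several probes were kept. They lie in separate places, apart from 2 overlapping probes of Oas1b, and 1 Ifitm1 probe is placed away from the gene, as given above. In 13 of them the probes differed by less than 0.5 in their day 8 changes. The pair for Isg15 differed in log2 level by several units on each array (6.46 and 2.60 on the control array) and yet changed by 1.61 and 1.70 at day 8. The pairs for Tor3a, Samd9l, Oas1a and Lgals3bp differed in change by less than 0.1. Wider spans were found for Herc6 (1.27 and 2.14) and Zbp1 (1.48 and 2.18), in which both probes rose. The probes of Oas1b and Parp9 disagreed. For Oas1b, 1 probe changed by 1.30 and the other 2, which overlap, by 0.24. For Parp9, the brighter probe changed by 0.90 and the dimmer one by -0.35, and the dimmer one was not well above background at day 4 and day 6. The values of these 2 genes therefore depend on the probe. The Oas1, Ifit and Ifitm genes have close paralogs, and binding of their probes to paralogs was not tested.

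**Figure D4:**
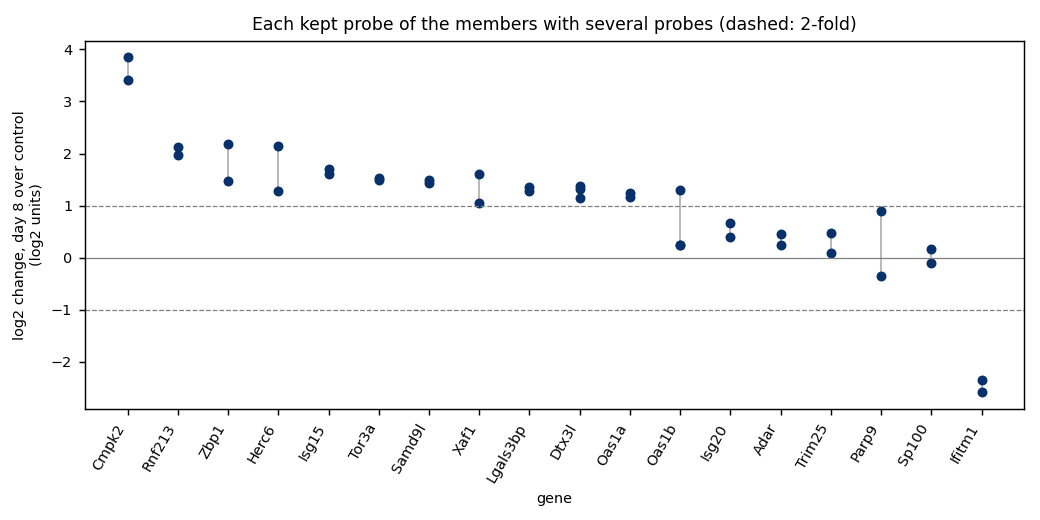
Log2 change from control to day 8 of each kept probe (points) of the 18 members with several probes, joined by a grey line per gene and ordered by their mean; dashed lines mark 2-fold. The probes of Oas1b lie on both sides of the 2-fold line and those of Parp9 on both sides of 0.

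Of 40 listed genes of the interferon pathway upstream of the effectors, 33 were measured. At day 8, 10 of them (30.3%) were at least 2-fold higher, against 14.1% of all genes, and 2 (6.06%) were lower, against 11.5%, with a median change of 0.10. Ifnb1, which encodes interferon beta, was too dim in the control to be well above background and read 149 at day 4, 201 at day 6 and 305 at day 8, at least 114-fold higher at day 8. Irf7, the factor that amplifies interferon transcription, read 180, 1066, 1142 and 1151 (2.67 ± 0.20). Irf7, like Stat2, was near its day 8 level at day 4. Irf9, which binds DNA within ISGF3, read 1303, 1260, 1300 and 1316 and did not differ from the control by more than the measurement error (0.01 ± 0.20). The change of Stat2 exceeded that of Irf9 by 2.18 ± 0.29. Among the RNA sensors, Dhx58 rose by 2.35 ± 0.20 and Ifih1 by 2.24 ± 0.15. The largest falls were those of Irf8, a factor of myeloid cells (-3.17 ± 0.23), and Socs3, an inhibitor of cytokine signalling (-2.17 ± 0.20).

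Genes of other interferon-induced groups were also higher at day 8. Of all genes, 14.1% were at least 2-fold higher and 11.5% lower on that day. Of 18 interferon-inducible GTPases, which attack membranes around intracellular pathogens, 17 were measured. At day 8, 14 of them were higher (82.4%) and 0 lower, with a median change of 2.29. Among those well above background in the control, the largest rises were those of Gbp6 (3.54 ± 0.15), Iigp1 (3.50 ± 0.14), Gbp2 (3.11 ± 0.20) and Gbp3 (2.56 ± 0.20). Gbp11 and Gbp4 were dim in the control and read at least 16.8-fold and 9.23-fold higher at day 8. Of 19 genes of class I antigen presentation, 9 were higher (47.4%) and 0 lower, with a median of 0.98. The largest rises were those of the immunoproteasome subunit Psmb9 (3.26 ± 0.20), the class I heavy chain H2-K1 (2.67 ± 0.11) and the immunoproteasome subunit Psmb8 (2.51 ± 0.20). Of 48 further interferon-stimulated genes, 42 were measured. At day 8, 19 of them were higher (45.2%) and 3 lower (7.14%), with a median of 0.60. The chemokine genes Ccl5 (8.93 ± 0.20) and Cxcl10 (6.38 ± 0.73) led this list, followed by Trim14 (3.37 ± 0.48) and Ifit3b (2.79 ± 0.14). Trim14 passed in the control through at least 1 of its probes. Its mean log2 level there (-5.43) lay below the lowest signal well above background (-5.22). Cxcl10, with 2 probes on the array, also passed in the control through at least 1 probe. It read 5.96 there, and its error was the largest of the genes just named. Plscr2 (-1.30 ± 0.20) and Ifi27 (-1.25 ± 0.20) fell most. Psmb8 and Dhx58 were each on more than 1 list. In a list of 12 reference genes 0 were higher and the median was -0.24. There 2 were lower (16.7%), Pgk1 (-1.57 ± 0.20) and Gapdh (-1.09 ± 0.07).

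**Figure D5:**
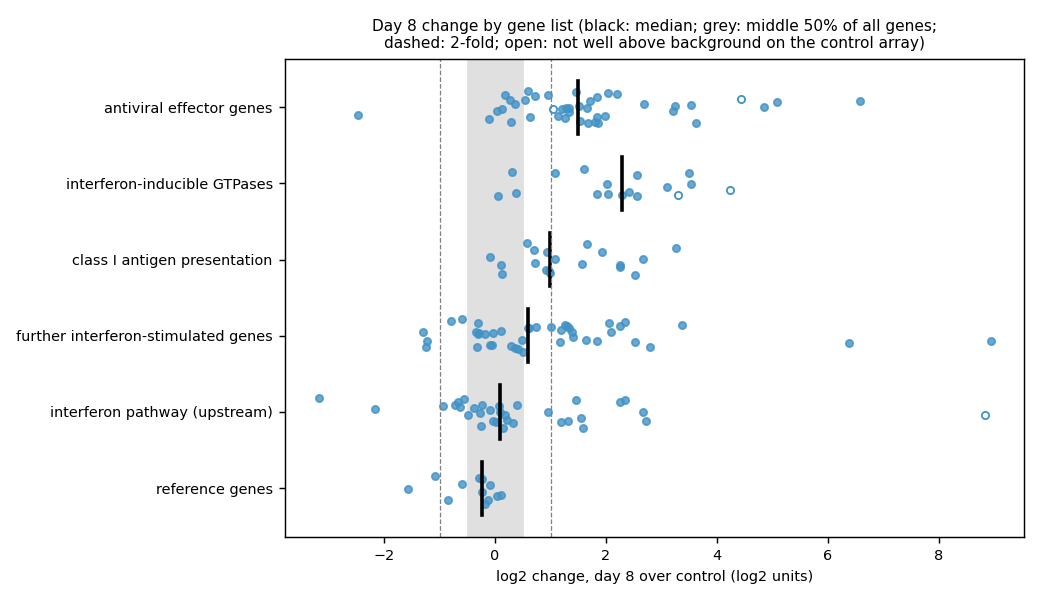
Log2 change from control to day 8 of every measured gene of the antiviral effector list, 4 related lists and the reference genes; points are genes (open where too dim in the control to be well above background), black bars are medians, the grey band holds the middle 50% of all genes and dashed lines mark 2-fold. The median is 1.49 for the effectors, 2.29 for the GTPases, 0.98 for class I presentation, 0.60 for further interferon-stimulated genes, 0.10 for the upstream genes and -0.24 for the reference genes.

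Markers of cell types were read beside these values. At day 8, 14.1% of all genes were at least 2-fold higher and 11.5% lower. Ly6a, which encodes Sca-1, and the stromal genes Pdgfra, Thy1, Col1a1 and Col3a1 were well above background on the 4 arrays. The summed level of 12 progenitor markers was 198820 on the control array and 161400 to 165170 on the others. Ly6a read 2514 on the control array and 16274 at day 8 (2.69 ± 0.20), and was the single gene of these 12 at least 2-fold higher then. Another 4 were lower, Tcf21 (-4.65 ± 0.21), Thy1 (-1.78 ± 0.20), Itgb1 (-1.35 ± 0.14) and Eng (-1.19 ± 0.20), and their part in the result was not tested. Of 12 leukocyte and macrophage markers, 9 were measured, with summed levels of 254, 236, 220 and 221 on the 4 arrays. Laptm5, Aif1 and Mrc1 were not well above background on any array, and Ptprc (CD45) read between 2.14 and 4.34. In this list Cd68 was at least 2-fold higher at day 8 and Lyz2 and Tyrobp lower, and the summed level was lower than in the control on all 3 days. Of 8 plasmacytoid and lymphoid markers 3 were measured, with summed levels of 398 to 496. The 8 endothelial markers summed to 218 on the control array and 112 to 125 on the others. The 10 adipocyte markers summed to 815 in the CMP control, and 4795, 18402 and 39975 in OSKM-CMPs at days 4, 6 and 8, and all 10 counted as at least 2-fold higher at day 8, though Lep, dim in the control, had a bound of 1.20-fold. The adipocyte markers and the effectors were both higher than the control at day 8 but differed in course. From day 4 to day 8 the median change was 5.95 for the adipocyte markers and 0.29 for the effectors. In that interval 7 of 10 markers and 1 of 42 effectors were at least 2-fold higher, against 4.66% of all genes. The part of the adipocyte markers in the result was not tested. In RNA from a whole culture, a change in the share of responding cells and a change per cell cannot be told apart.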

How the data were processed

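RNA of 4 mouse cell samples, 1 array per condition, was read in the Cy3 channel. The authors deposited, for each array, the scanner output of Feature Extraction (version 10.7.3.1 in the file headers; the submitters' processing notes give 9.5.3), with a background-subtracted processed intensity, its error and flags for each spot. The authors also deposited a table of normalized log2 values, made in GeneSpring per the study's methods; it differed from the values used here by a constant per array. Here the log2 of the processed intensity was averaged over the spots of a probe without control spots (3671) and outlier spots, less each array's own 75th percentile. A probe was kept if any array read it well above background. Probes were named by symbol (27730), accession (2851) or synonym (639) in the RefSeq table of GRCm38.p6; 24461 had no match. A gene is the mean of its kept probes, and 5017 of 16649 genes had several. It counted as well above background on an array if any of its kept probes was. A gene dim on 1 array is given as a bound against the lowest signal well above background there, or its own where that is higher. With single arrays no test was made; calls are 2-fold differences.

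The members, gene lists, roles and alternatives were chosen with earlier results of these data known. All measured members were to be named, and from each related list up to 4 rises and 2 falls at day 8 among genes measured above background both in the control and at day 8, with Ifnb1, Irf7 and Irf9 always; 1 further gene of this rule is not reported here. Other list genes named, and the pairs of members compared, were chosen after their values were seen. The alternatives were other background corrections, scales, filters, probe rules and fold limits. The calling step was tested on simulated data. Python 3.11.15, numpy 2.4.6, pandas 2.3.3, matplotlib 3.10.9, R 4.3.3 and limma 3.58.1 (normexp with an offset of 50, and quantile normalization) were used.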

Additional observations from a re-analysis of the deposited data

How the results depend on the processing

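Of 112 summary values recomputed under the alternatives (counts and medians), 105 stayed within the limits of no change and 0 reversed. The authors' normalized values and naming by symbol alone, which are among the alternatives, could hardly move them. Normexp with quantile normalization gave a median member change of 1.04 at day 4 and 1.34 at day 6; quantile normalization alone gave 1.60 at day 8. Keeping only probes that passed the background flag on all 4 arrays gave 1.17 at day 4, over 40 members. A 3-fold limit gave 12 members higher and 0 lower at day 4 and 19 higher at day 8, by its construction, where 7.06% and 8.52% of all genes were higher at that limit. For the other shifts the cause was not tested. The normexp offset of 50 is added to every signal, which shrinks the changes of dim genes by construction. On the control array the processed signals of Ddx60, Oas3 and Mx1 before scaling were 2.19, 12.3 and 22.7. The array median as the scale moved the median of all genes to -0.15, -0.17 and -0.30 on the 3 days. The members' changes were taken relative to that shift, but the counts were not. On that scale 22, 27 and 25 members were at least 2-fold higher on the 3 days, against 10%, 10.8% and 11% of all genes. Of 418 values of single members at day 8, 346 did not move by more than their error, 72 did, and 0 reversed. Under normexp with quantile normalization 31 of 42 moved, and under quantile normalization alone 28 of 42. The authors' normalized values, the array median scale and naming by symbol alone could hardly move these values, and all 42 stayed in each. The total of 346 therefore overstates how little single values depend on the processing. Ddx60, Dtx3l, Oas3 and Xaf1 fell below 2-fold at day 8 under normexp with quantile normalization. Oas3 also did so under quantile normalization alone, and Uba7 passed 2-fold under both. No other member crossed the limit in these single values, which on the array median scale are relative to its shift. Alternatives that changed the limit itself are left out here. Parp9 read 0.90 with its brighter probe and Oas1b 0.24 with its brightest. No paired analysis was possible because a single array stood for each condition. Depth in the sense of arrays is signal over background: Oas3, Ddx60 and Ifnb1 have only bounds against the control, and Oas1g has no value.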
